A study of Mus musculus with 12 samples.

Results

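Immunoglobulin variable (V) genes supply the front end of every antibody chain, and their messenger RNA was followed here in whole kidneys of mice with an inherited kidney disease. The members were the rows of the deposited gene table whose symbol starts with Ighv (heavy chain), Igkv (kappa light chain) or Iglv (lambda light chain) and whose counts summed to at least 100 over all 12 libraries. They were thus chosen by their summed counts over both diets, to which the libraries richest in V message contributed most. That gave 125 of the 348 V gene rows in a table of 55487 genes: 59 of 185 Ighv rows, 63 of 160 Igkv rows and 3 of 3 Iglv rows. The total count of a member is therefore a description and carries no test. Just inside the limit were Ighv1-61 with 111 counts and Igkv13-84 with 111.54 counts, and just outside it were Igkv12-38 and Igkv4-53 with 98 counts each. Another 130 V rows were at 0 in every library.

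The libraries came from male mice with X-linked Alport syndrome, labelled Col4a5 for the gene of a type IV collagen chain of the glomerular basement membrane. All mice were of the B6 background and 30 weeks old. The genotype field reads HET for every library although males carry a single X chromosome, so no allele status was used. The 6 fisetin libraries came from mice fed 500 ppm of fisetin, a plant flavonol, in the diet, and the 6 control libraries from mice fed a control diet. Either diet had 3 libraries in each of the 2 batches that the labels name. Healthy mice were not analysed here. Whether every library stands for a separate animal is not stated, so a p-value here reflects spread among libraries, which may be technical. Libraries are numbered 1 to 6 within each diet in accession order, and in each diet 1 to 3 were batch 1 and 4 to 6 batch 2.

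A B cell builds its antibody genes by cutting and joining DNA, so that 1 V gene segment out of many is brought next to joining segments and is transcribed with a constant region. A heavy chain pairs with a kappa or a lambda light chain. A cell and its descendants keep the same joined heavy and light chain genes, and plasma cells, which secrete antibody, hold far more of this messenger RNA than resting B cells do. In a tissue sample, an even spread of reads over many V genes therefore comes from many different cells, whereas reads piled on a single V gene can come from 1 expanded clone, from several clones that picked the same segment, or from a few very active plasma cells. A table of counts per gene does not separate these, since it holds no junction sequence.

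The germline sequences behind the patterns described further on are given here as the end of each segment, 5′ to 3′ on the coding strand, from GENCODE M21 transcripts on GRCm38. The first pair, Ighv1-82 (chr12:115952538-115952822, minus strand) and Ighv1-80 (chr12:115912344-115912628, minus strand), is shown because their counts moved in a nearly fixed ratio. Capitals mark the 11 bases at which these stretches differ.
Ighv1-82: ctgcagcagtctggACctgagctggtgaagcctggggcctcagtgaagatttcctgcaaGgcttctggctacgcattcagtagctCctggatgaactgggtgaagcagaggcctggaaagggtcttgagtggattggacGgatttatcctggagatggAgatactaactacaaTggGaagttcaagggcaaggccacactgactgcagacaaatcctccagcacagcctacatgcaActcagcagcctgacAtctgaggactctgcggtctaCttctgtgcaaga
Ighv1-80: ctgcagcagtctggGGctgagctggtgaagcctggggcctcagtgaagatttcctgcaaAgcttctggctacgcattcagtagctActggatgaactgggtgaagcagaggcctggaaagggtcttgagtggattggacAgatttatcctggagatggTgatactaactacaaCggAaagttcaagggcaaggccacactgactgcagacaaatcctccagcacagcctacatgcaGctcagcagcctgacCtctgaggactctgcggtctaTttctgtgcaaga
The next pair, Ighv1-53 (chr12:115158403-115158687, minus strand) and Igkv4-55 (chr6:69607275-69607559, minus strand), led the heavy and kappa loci together in control 1 and control 6. In these and in the sequences after them, capitals run from the codon of the conserved cysteine to the end of the segment, where joining takes place.
Ighv1-53: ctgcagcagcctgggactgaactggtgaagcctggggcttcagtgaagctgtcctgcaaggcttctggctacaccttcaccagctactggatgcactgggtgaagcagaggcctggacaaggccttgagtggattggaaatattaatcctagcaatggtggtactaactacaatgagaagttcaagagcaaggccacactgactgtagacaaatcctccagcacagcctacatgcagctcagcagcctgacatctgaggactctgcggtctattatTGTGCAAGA
Igkv4-55: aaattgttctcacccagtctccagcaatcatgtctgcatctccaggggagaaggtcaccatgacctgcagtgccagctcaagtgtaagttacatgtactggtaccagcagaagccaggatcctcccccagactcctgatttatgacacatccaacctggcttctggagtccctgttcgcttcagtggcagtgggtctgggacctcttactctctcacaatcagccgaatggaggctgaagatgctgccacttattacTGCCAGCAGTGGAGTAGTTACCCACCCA
Ighv1-50 (chr12:115119748-115120032, minus strand) and Igkv4-70 (chr6:69267888-69268172, minus strand) took the largest shares of any heavy and any kappa gene, both in the library control 3. Igkv17-121 (chr6:68037034-68037318, plus strand) is shown because it led the kappa locus of fisetin 6 and of no other library.
Ighv1-50: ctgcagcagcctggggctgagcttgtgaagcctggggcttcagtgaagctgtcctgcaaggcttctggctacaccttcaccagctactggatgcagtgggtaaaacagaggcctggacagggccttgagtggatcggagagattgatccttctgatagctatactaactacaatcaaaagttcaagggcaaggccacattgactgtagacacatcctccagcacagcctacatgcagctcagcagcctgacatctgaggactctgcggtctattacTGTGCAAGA
Igkv4-70: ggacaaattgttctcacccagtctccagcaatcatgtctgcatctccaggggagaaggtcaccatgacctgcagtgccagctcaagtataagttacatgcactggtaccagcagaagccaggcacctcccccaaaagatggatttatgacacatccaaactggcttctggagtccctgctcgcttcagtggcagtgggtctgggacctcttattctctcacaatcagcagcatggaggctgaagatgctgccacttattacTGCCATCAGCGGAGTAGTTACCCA
Igkv17-121: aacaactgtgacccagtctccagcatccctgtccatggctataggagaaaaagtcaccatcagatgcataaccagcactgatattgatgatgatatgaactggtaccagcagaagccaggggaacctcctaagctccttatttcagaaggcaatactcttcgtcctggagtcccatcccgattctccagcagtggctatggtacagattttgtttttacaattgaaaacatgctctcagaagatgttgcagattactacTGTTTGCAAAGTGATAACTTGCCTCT

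All 125 members were annotated as V genes with an open reading frame, and none of the 130 annotated V pseudogenes in the table passed the limit. The table held 91 further rows annotated as V genes that did not pass. Members held 98.65% of all counts on V rows. Of the members, 45 were counted in all 12 libraries, and 43 had over 50% of their summed counts in a single library. Without its highest library, a member would still have passed the limit in 107 of 125 cases. The library fisetin 5 held the highest count of 54 members, fisetin 4 of 21 and control 1 of 19.

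V gene message ranged widely between kidneys of both diets. Summed over members as CPM, which are counts scaled to library size with edgeR's TMM factors, it was 2094, 631.9, 427.8, 1200, 3102 and 42.74 CPM in fisetin 1 to 6, against 1946, 24.74, 334.2, 145.2, 22.19 and 621.5 CPM in control 1 to 6. The highest library had 139.8 times the level of the lowest, and the groups overlapped over most of their range. On the log2 scale the summed level was 9.39 ± 2.21 in fisetin libraries and 7.48 ± 2.58 in control libraries (SD, n = 6 each), a difference of 1.91, or 3.75-fold. Within batches the difference was 1.71 in batch 1 and 2.10 in batch 2. Leaving out 1 library at a time gave differences of 1.31 to 2.70, and 1 library of 6 in fisetin and 2 of 6 in control were below 50 CPM. No p is given for this sum, since the members were chosen with results known. In whole-kidney RNA, fewer B lineage cells and less RNA per cell cannot be told apart.

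Heavy and kappa messages moved together. Summed Ighv ranged over 16.7 to 1601 CPM in fisetin libraries and 9.68 to 994.5 CPM in control libraries, and summed Igkv over 24.7 to 1390 CPM in fisetin libraries and 11.5 to 938.9 CPM in control libraries. The ratio of heavy to light chain V counts stayed between 0.642 and 1.12 in fisetin libraries and between 0.773 and 1.05 in control libraries. The 3 libraries with the fewest V counts, fisetin 6, control 2 and control 5, were also the 3 with the lowest ratio.

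**Figure D1:**
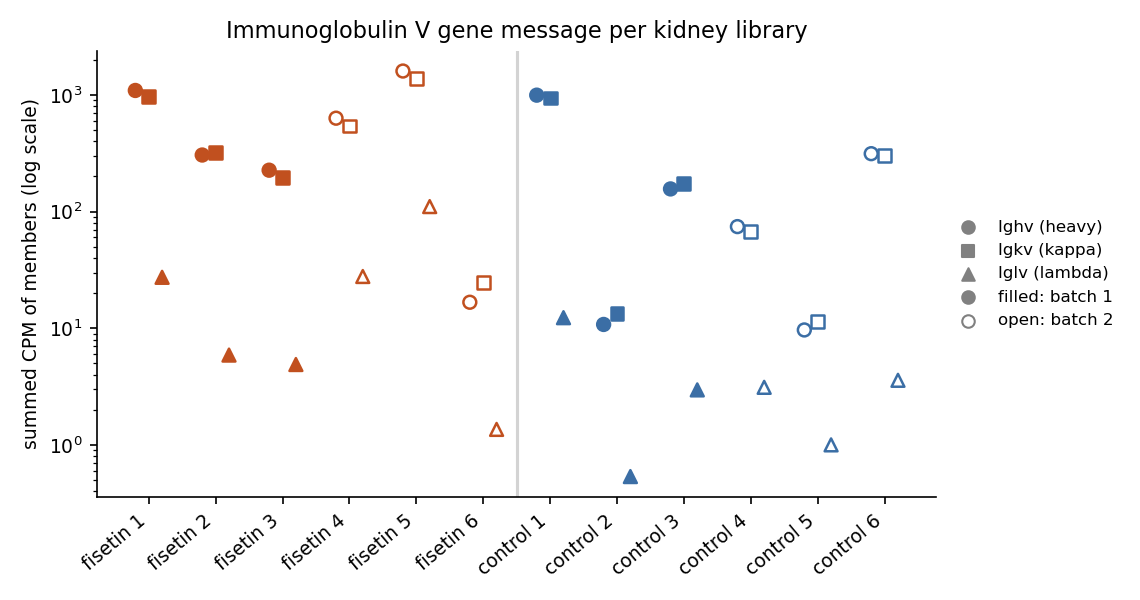
Summed CPM of the Ighv (circles), Igkv (squares) and Iglv (triangles) members in each library on a log axis, fisetin left and control right, with batch 1 filled and batch 2 open. Heavy and kappa symbols sit side by side in every library, lambda lies lower, and the libraries of both diets spread over a 139.8-fold range of the total.

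Markers of the B lineage and of other cell types differed in the sign and size of their fold changes with fisetin. Summed B cell markers, among them Ms4a1 and Pax5, were 15.96 to 148.2 CPM in fisetin libraries and 8.48 to 80.9 CPM in control libraries, and 9 of 9 had a positive fold change with fisetin, with 0 past an edgeR adjusted p of 0.05. Plasma cell markers summed to 182 to 1237 CPM in fisetin libraries and 209 to 804 CPM in control libraries. Of the 9 plasma cell markers tested, 7 had positive and 2 negative fold changes. Jchain, which links antibody multimers, was at 1.30 on the log2 scale, whereas Xbp1 and Fkbp11, of the secretory machinery that other cells also use, were at -0.002 and -0.034. Immunoglobulin constant genes spanned 146 to 12080 CPM in fisetin libraries and 85.0 to 7048 CPM in control libraries. Fold changes were positive for 8 of 8 T cell markers, 3 of 3 lymphoid stroma markers and 7 of 7 macrophage markers tested, the last summing to 465.0 to 1205 CPM in fisetin libraries and 509.6 to 917.5 CPM in control libraries. Germinal centre markers were positive in 3 of 4 tested, yet their sum averaged 83.1 ± 15.6 CPM in fisetin libraries and 92.8 ± 29.6 CPM in control libraries (SD, n = 6 each), with Bcl6 at -0.23. Fold changes were negative for 8 of 8 kidney epithelial markers, which summed to 6123 to 13890 CPM in fisetin libraries and 8207 to 15090 CPM in control libraries. Over all 17890 genes tested, 8984 fold changes were positive and 8906 negative. An unadjusted edgeR p under 0.05 was found for 4 of 8 T cell, 1 of 7 macrophage and 1 of 8 kidney markers. It was found for 0 of 9 B cell and 0 of 9 plasma cell markers, and for 14.6% of all genes. The part of the listed cell types in the V gene levels was not tested. Rag2, needed to rearrange V genes in developing B cells, was at 0 in all 12 libraries, and none of the 5 rearrangement genes passed the count filter.

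No V gene passed the threshold for diet. After the count filter, 78 of the 125 members were tested in edgeR's quasi-likelihood fit over 17890 genes, and 0 had a Benjamini-Hochberg adjusted p under 0.05, which was also the count over all genes (0% called). At an unadjusted p under 0.05 there were 20 of 78 members, all higher with fisetin, against 8.23% of all genes higher and 6.34% lower (14.6% in both directions). Fold changes were positive for 70 and negative for 8, with a median log2 fold change of 1.61, against 0.0008 over all genes tested. Without the filter, all 125 members could be fitted, 38 had an unadjusted p under 0.05 against 9.89% of all genes, and the median was 1.85. Members rise and fall with the total V message of a kidney, so these counts are not independent of each other. The limit on summed counts also favours genes used in the libraries richest in V message, which were fisetin 5, fisetin 1, control 1 and fisetin 4. DESeq2, run on the same genes, called 3 members, all higher with fisetin, where it called 0.954% of all genes: Ighv5-4 (adjusted p = 0.00144), Igkv10-94 (adjusted p = 0.0151) and Ighv1-26 (adjusted p = 0.029). With all libraries, edgeR called none of these 3. Over the alternatives run, the adjusted p ranged over 0.00144 to 0.592 for Ighv5-4, which edgeR called without fisetin 6 (adjusted p = 0.0396), and over 0.0151 to 0.749 for Igkv10-94. For 0 of 125 members did the CPM of all fisetin libraries lie apart from that of all control libraries, against 0.878% of all genes tested (0.464% with every fisetin library above every control library).

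**Figure D2:**
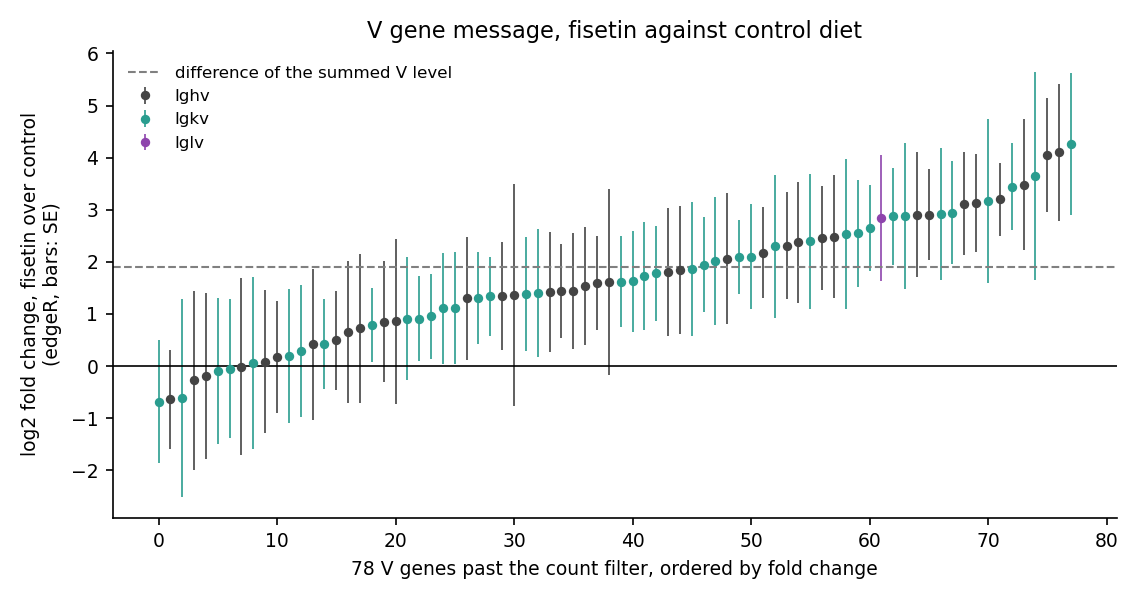
Log2 fold change of fisetin over control with its SE for the 78 V genes past the count filter, ordered by size and coloured by locus. Of the points, 70 lie above 0 and 8 below, most bars are wider than 1 log2 unit to either side, and the dashed line marks the 1.91 difference of the summed V level.

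Among the genes with the smallest p for diet, all were minor users of their locus. Ighv5-4 was 0.218 to 5.90 CPM (median 2.44) in fisetin libraries and 0 to 0.548 CPM (median 0.307) in control libraries. Its lowest fisetin library lay within the control range and the other 5 lay above it. The log2 fold change was 3.20 ± 0.70 (SE), with an edgeR adjusted p of 0.223. Igkv10-94 was 0.381 to 10.9 CPM (median 3.99) in fisetin libraries and 0.0537 to 1.00 CPM (median 0.304) in control libraries, a log2 fold change of 3.44 ± 0.84 with an edgeR adjusted p of 0.252. In CPM, 4 of the 6 fisetin libraries lay above every control library. Its share of kappa counts was 0.291% to 3.41% (median 0.660%) in fisetin libraries and 0.0352% to 4.79% (median 0.291%) in control libraries, highest in control 5. Ighv5-16 was 0.218 to 7.33 CPM (median 0.941) in fisetin libraries and 0 to 0.580 CPM (median 0.0228) in control libraries, and its log2 fold change of 4.05 ± 1.10 had an edgeR adjusted p of 0.27. Ighv1-12 ranged over 0.0545 to 8.09 CPM (median 1.76) in fisetin libraries and 0 to 0.696 CPM (median 0.351) in control libraries, with a log2 fold change of 3.13 ± 0.94 and an edgeR adjusted p of 0.281. In share of the heavy chain locus, Ighv5-16 was the single member of 125 (0.8%) whose groups did not overlap, at 0.0688% to 1.30% in fisetin libraries and 0% to 0.0583% in control libraries. In 3 of the 6 control libraries it had no count. Of these, control 2 and control 5 had only 201 and 193 heavy chain counts. There 1 count made up 0.498% and 0.518% of the locus, within the fisetin range, so the separation rests on sparse libraries.

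Among members with negative fold changes, the 4 with the smallest p were each highest in control 1. Igkv4-57-1 was 0 to 9.39 CPM (median 0.883) in fisetin libraries and 0.048 to 24.8 CPM (median 0.552) in control libraries, its highest value being control 1. Ighv2-2 was 0.272 to 9.51 CPM (median 1.35) in fisetin libraries and 0.0457 to 34.6 CPM (median 0.470) in control libraries, again highest in control 1. The medians of both genes were higher in fisetin libraries, although the fitted fold changes were negative. Igkv4-57-1 had a log2 fold change of -0.61 ± 1.89 (SE) and Ighv2-2 one of -0.28 ± 1.73, and without control 1 these were 1.71 and 3.04. The signs also turned without fisetin 1, 2 or 3, to between 0.03 and 0.37. Ighv1-69 and Igkv2-137 also peaked in control 1, at 6.48 and 9.64 CPM. Their log2 fold changes of -0.63 ± 0.95 and -0.68 ± 1.18 became 0.59 and 0.62 without that library.

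No V gene passed the threshold for batch. For batch 2 over batch 1, edgeR called 0 of 78 tested members and 0% of all genes, as did DESeq2. At an unadjusted p under 0.05 there was 1 member, lower in batch 2, against 1.94% of all genes lower and 1.44% higher (3.38% in both directions). This was Igkv8-21, with a log2 fold change of -3.08 ± 0.83 (edgeR adjusted p = 0.892), and it was highest at 19.8 CPM in fisetin 2. Next came Ighv1-22 at -2.55 ± 1.16 (edgeR adjusted p = 0.892), whose highest value of 11.3 CPM was in control 1. The interaction of diet with batch gave 0 members and 0% of all genes by edgeR. By DESeq2 it gave 0 members, against 0.00559% of all genes. At an unadjusted p under 0.05, 3 members had a positive interaction, that is a higher fold change in batch 2 than in batch 1, against 1.11% of all genes with a positive and 0.989% with a negative one (2.1% in both directions). The 2 with the smallest p were Igkv4-74 (log2 difference of fold changes 5.64 ± 2.28, edgeR adjusted p = 0.9999) and Ighv1-77 (7.09 ± 2.96, edgeR adjusted p = 0.9999). In batch 1, Igkv4-74 averaged 1.19 CPM in fisetin and 4.09 CPM in control libraries, and in batch 2 1.03 CPM in fisetin and 0.0713 CPM in control libraries. Ighv1-77 averaged 1.83 CPM in fisetin and 6.32 CPM in control libraries of batch 1, and 17.0 CPM in fisetin and 0.417 CPM in control libraries of batch 2. The direction thus turned between batches for both, and their control mean in batch 1 was mostly control 1, at 11.3 and 18.7 CPM. The third, Igkv4-57-1, had a log2 fold change of -3.63 in batch 1 alone and 2.56 in batch 2 alone.

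The leading V genes differed between kidneys, and some kidneys shared them. The share of a gene is given as its percent of the member counts of its own locus in that library, which removes the large differences in total V message. The most used heavy chain gene was Ighv1-19 in fisetin 1, 5 and 6, Ighv1-82 in fisetin 2 and 4 and Ighv1-55 in fisetin 3. In control libraries it was Ighv1-53 in control 1 and 6, Ighv9-3 in control 2, Ighv1-50 in control 3, Ighv1-72 in control 4 and Ighv1-64 in control 5. For kappa, Igkv3-2 led in fisetin 1 and 5, Igkv4-55 in fisetin 2, 3 and 4 and in control 1, 4 and 6, Igkv17-121 in fisetin 6, Igkv4-72 in control 2, Igkv4-70 in control 3 and Igkv10-96 in control 5. Thus Ighv1-19 and Igkv3-2 led together in fisetin 1 and 5, Ighv1-82 and Igkv4-55 in fisetin 2 and 4, and Ighv1-53 and Igkv4-55 in control 1 and 6. Some leads were narrow. In control 5, Ighv1-64 at 13.3% was followed by Ighv1-34 at 12.9%, and in control 4, Ighv1-72 at 18.4% by Ighv1-53 at 17.8%. The 95% Wilson intervals of the first and second gene overlapped for heavy chains in fisetin 3, fisetin 6, control 4, control 5 and control 6, and for kappa in control 5. The leading heavy chain gene took 10.1% to 27.1% (median 16.9%) in fisetin libraries and 13.3% to 44.3% (median 20.7%) in control libraries. The mean difference of -6.80 percentage points was -13.0 in batch 1 and -0.60 in batch 2, and the groups overlapped. Without control 3 it was -2.75. For kappa, the leading gene took 10.8% to 34% (median 22.4%) in fisetin libraries and 17.0% to 39.7% (median 29.1%) in control libraries. That mean difference of -6.61 percentage points was -13.0 in batch 1 and -0.22 in batch 2, and without fisetin 2 it was -4.24.

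**Figure D3:**
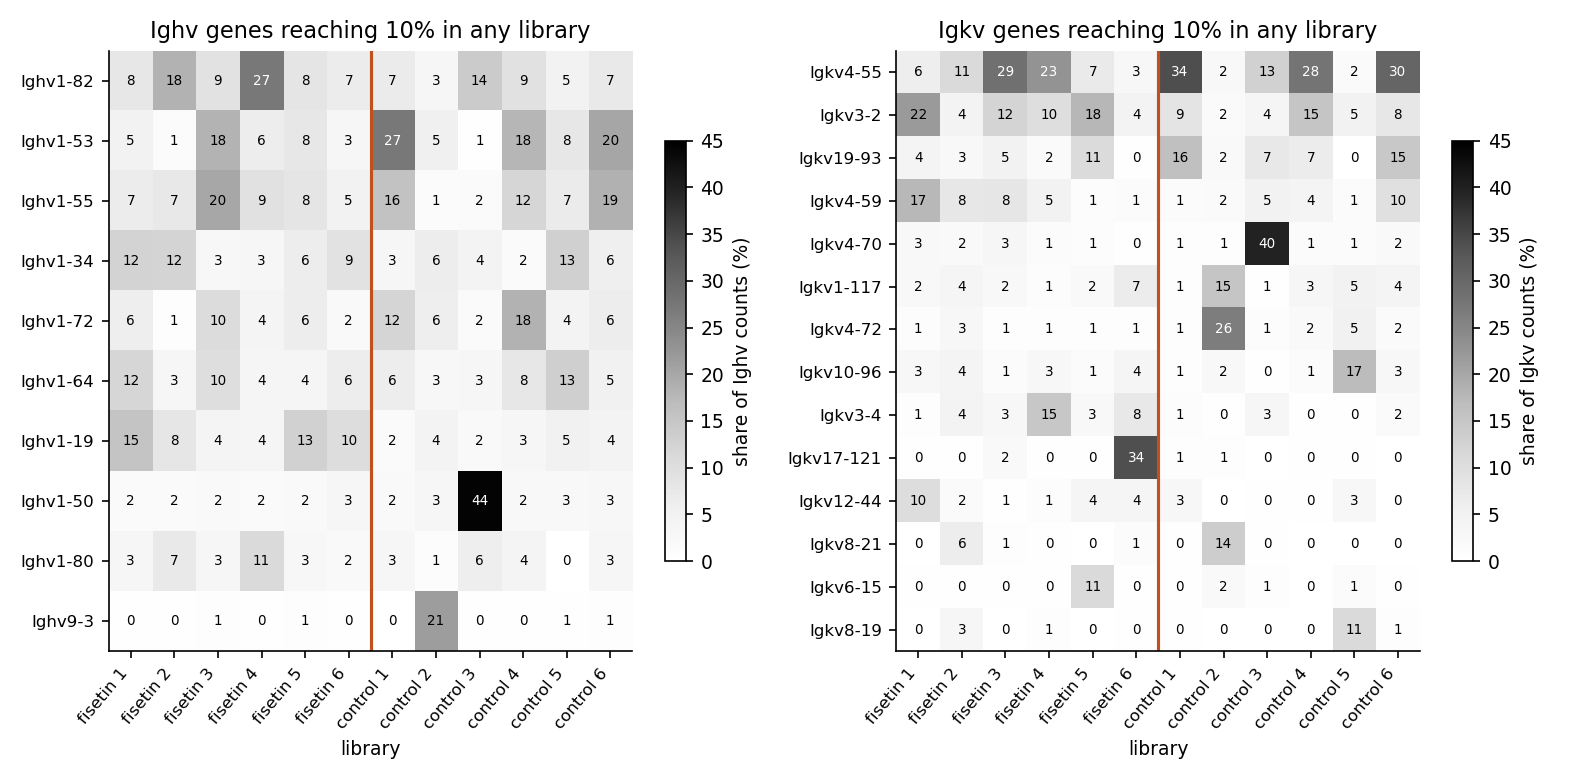
Share of the locus's member counts, in percent, for every Ighv gene (left) and Igkv gene (right) that reached 10% in any library, with fisetin libraries left of the line and control libraries right of it. Cells of 44% for Ighv1-50 and 40% for Igkv4-70 stand out in control 3, and 34% for Igkv17-121 in fisetin 6, while Ighv1-82 and Igkv4-55 are used across most libraries.

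A set of heavy chain genes was used in every kidney. Ighv1-82, Ighv1-55, Ighv1-34, Ighv1-64, Ighv1-19 and Ighv1-50 were each at 1% or more in all 12 libraries. Ighv1-82, the most used by mean share, took 6.52% to 27.1% (median 8.66%) in fisetin libraries and 3.48% to 14.0% (median 7.09%) in control libraries. Ighv1-53 took 1.30% to 18.2% (median 5.69%) in fisetin libraries and 0.525% to 27.1% (median 12.8%) in control libraries. Ighv1-55 took 4.88% to 20.0% (median 7.86%) in fisetin libraries and 1.5% to 18.6% (median 9.31%) in control libraries. These 3 genes together with Ighv1-34, Ighv1-72 and Ighv1-64 made up 49.28% of heavy chain counts on average. Ighv1-72, known in B6 mice for its use in antibodies against the hapten NP, took 0.797% to 10.4% (median 4.95%) in fisetin libraries and 1.63% to 18.4% (median 6.17%) in control libraries. Ighv1-34 had medians of 7.65% in fisetin libraries and 4.95% in control libraries, and Ighv1-64 had medians of 4.97% in fisetin libraries and 5.73% in control libraries. The ranges of the diets overlapped for all 6.

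Ighv1-19 took a larger share in most fisetin libraries than in any control library, though the groups overlapped. Its share was 3.87% to 15.4% (median 9.08%) in fisetin libraries and 1.91% to 5.26% (median 3.78%) in control libraries. In fisetin 1, 2, 5 and 6 it was above every control library, and in fisetin 3 and 4 it lay within the control range. In CPM it was 1.68 to 204.7 (median 24.5) in fisetin libraries and 0.483 to 18.9 (median 2.86) in control libraries. The log2 fold change was 3.48 ± 1.26 with an edgeR adjusted p of 0.303. Ighv1-26, one of the DESeq2 calls, is 96.3% identical to Ighv1-19 and 96.58% identical to Ighv1-34. The count ratio of Ighv1-19 to Ighv1-26 ranged from 0.69 in control 2, with 13 counts of Ighv1-26, to 4.94 in control 6. Ighv1-26 took 1.06% to 7.78% (median 3.83%) in fisetin libraries and 0.731% to 6.47% (median 1.18%) in control libraries. By edgeR its log2 fold change was 4.10 ± 1.31 with an adjusted p of 0.285.

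Among kappa genes, Igkv4-55 was used most, at 10% or more in 7 of the 12 libraries. It took 2.65% to 28.6% (median 8.93%) in fisetin libraries and 1.74% to 34.2% (median 20.3%) in control libraries. The lowest values were in fisetin 6, control 2 and control 5, the libraries with the fewest V counts. Igkv3-2 took 4.42% to 21.9% (median 11.1%) in fisetin libraries and 1.60% to 15.2% (median 6.31%) in control libraries. Igkv19-93 took 0.442% to 10.7% (median 3.31%) in fisetin libraries and 0% to 16.2% (median 7.07%) in control libraries. Igkv4-59 reached 17.5% in fisetin 1 and had medians of 6.12% in fisetin libraries and 2.89% in control libraries. The 6 kappa genes with the largest mean share held 44.76% of kappa counts on average. Both diets overlapped for each of these 4 genes.

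A set of highly used heavy and kappa genes was shared by kidneys of both diets. Ighv1-53, Ighv1-55 and Igkv4-55 were each above 10% in fisetin 3 and in control 1, control 4 and control 6. The share of heavy chain counts that a pair of libraries had in common, summed as the smaller of both shares for each gene, was 77.8% between fisetin 3 and control 4, the highest of all 66 pairs. For kappa the highest was 76.1%, between fisetin 3 and control 6. Over all pairs the shared part was 29.2% to 77.8% (median 51.9%) for heavy and 24% to 76.1% (median 45.5%) for kappa. Pairs within fisetin had medians of 59.3% for heavy and 49.8% for kappa, pairs of a fisetin and a control library 51.8% and 44.9%, and pairs within control 43.8% and 39.0%. Among libraries with at least 1000 heavy chain counts, the medians for heavy were 59.1% within fisetin, 52.9% across diets and 54.9% within control, and for kappa they were 54.9% within fisetin, 51.9% across diets and 57.1% within control. The order of the 3 kinds of pair thus changed for both loci when the sparse libraries were left out. Fisetin 1 and fisetin 5, with the most V message of all, shared 74.4% of heavy chain use.

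Other genes were prominent in a single kidney. By a description set after the shares were seen, a gene was counted as prominent in 1 kidney when it took 10% or more there and at least 5 times its median share in the other libraries. This held for 2 heavy chain and 10 kappa genes. In all, 10 heavy chain and 14 kappa genes reached 10% in any library, and every other heavy or kappa member stayed under 10% throughout. In control 3, Ighv1-50 took 44.3% of heavy chain counts (95% Wilson interval 42.7% to 46.0%, 1519 of 3426), against 1.59% to 3.48% in the other 11 libraries. In the same library Igkv4-70 took 39.7% of kappa counts (38.2% to 41.3%, 1520 of 3830), against 0.442% to 3.34% elsewhere. The counts of these 2 genes were nearly equal, in a library whose ratio of heavy to light chain V counts was 0.880. Counts per gene do not show which chains pair in a cell. These intervals cover counting error only, since reads without molecular identifiers are not independent molecules.

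In fisetin 6, Igkv17-121 took 34% of kappa counts (29.8% to 38.5%, 154 of 453), against 0.157% to 2.28% elsewhere. No heavy chain gene of that library stood out with it, since its leader, Ighv1-19, took 10.1% (7.21% to 14.0%). In control 2, Ighv9-3 took 21.4% of heavy chain counts (16.3% to 27.6%, 43 of 201), against 0.175% to 0.828% elsewhere. Its kappa side was shared by Igkv4-72 at 26.4% (21.3% to 32.2%), Igkv1-117 at 15.2% (11.3% to 20.2%) and Igkv8-21 at 13.6% (9.90% to 18.4%) of 250 counts. Control 5, with 230 kappa counts, had Igkv10-96 at 17.0% (12.7% to 22.3%) and Igkv8-19 at 10.9% (7.47% to 15.6%). These 3 kidneys had fewer than 1000 counts per locus, which the width of the intervals shows.

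Deep libraries also had prominent kappa genes. Igkv6-15 took 10.8% (10.4% to 11.2%, 2589 of 23990) in fisetin 5, against 0.0709% to 2.00% elsewhere. Igkv3-4 took 14.8% (14.3% to 15.5%, 2006 of 13519) in fisetin 4, against 0.4% to 7.51% elsewhere. Igkv12-44 took 10.1% (9.68% to 10.6%, 1756 of 17357) in fisetin 1, against 0% to 3.75% elsewhere. No heavy chain gene met the description in these 3 libraries.

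Diversity was summarised as the effective number of V genes, the count of equally used genes that would give the same Shannon entropy. For heavy chains it was 14.8 to 30.8 (median 21.1) in fisetin libraries and 10.1 to 22.9 (median 16.2) in control libraries, with means of 21.8 ± 5.59 and 17.0 ± 4.89 (SD, n = 6 each). The difference of 4.86 was 3.31 in batch 1 and 6.41 in batch 2, and the diets overlapped. For kappa it was 16.7 to 30.5 (median 18.8) in fisetin libraries and 12.1 to 23.3 (median 15.6) in control libraries, with means of 21.1 ± 5.41 and 16.2 ± 4. That difference of 4.93 was 7.75 in batch 1 and 2.11 in batch 2. The heavy chain difference was smaller than the SD of either diet, and the kappa difference was smaller than that of fisetin and larger than that of control libraries. Without fisetin 6 the heavy chain difference was 3.06, and without fisetin 2 the kappa difference was 3.06. No p is given for these scores. The lowest heavy and the lowest kappa values were both in control 3. Thinned to the same number of counts, 193 for heavy and 229 for kappa, the differences were 3.45 and 3.67. The thinned heavy chain difference was 1.5 without fisetin 6 and 2.10 without control 3, and the thinned kappa difference was 2.08 without fisetin 2.

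**Figure D4:**
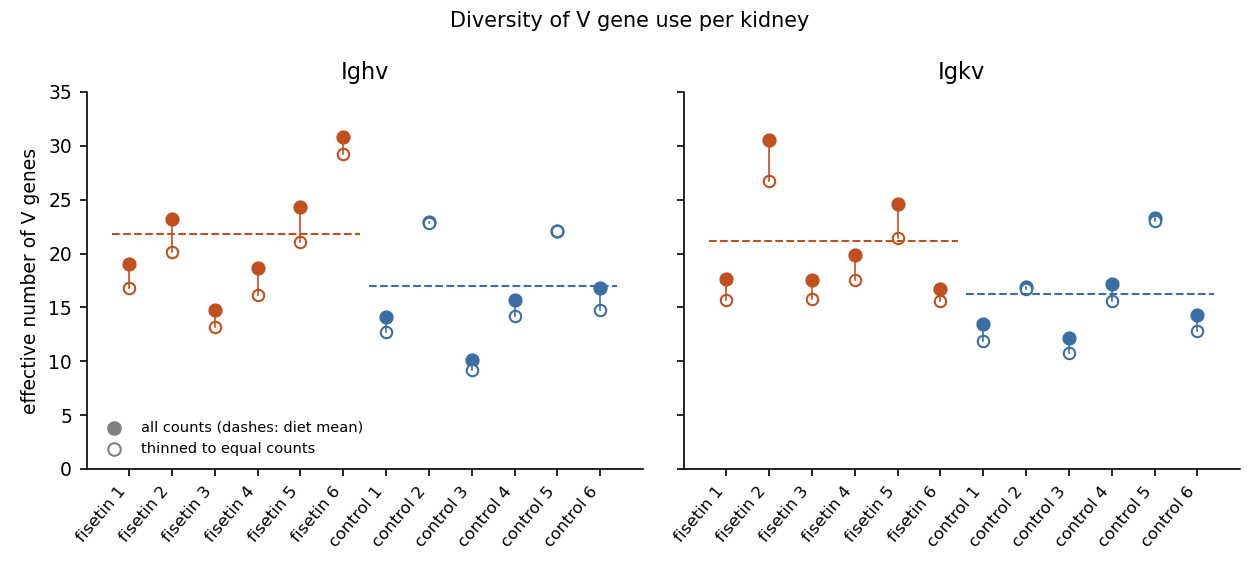
Effective number of Ighv genes (left) and Igkv genes (right) in each library from all counts (filled) and after thinning to equal counts (open), with dashed lines at the diet means. Fisetin means of 21.8 and 21.1 lie above control means of 17.0 and 16.2, single libraries of both diets overlap, and the open points of most libraries lie below the filled ones.

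Effective numbers from all counts did not follow depth in one direction. Fisetin 5, with 27629 heavy chain counts, had 24.3 effective heavy chain genes, and fisetin 6, with 307, had 30.8. Control 1 had 18874 heavy chain counts and 14.1 effective genes. Thinned to 193 heavy chain counts, the libraries with the fewest V counts were highest. Fisetin 6 had 29.2, control 2 had 22.8 and control 5 had 22.06, and fisetin 5 came next at 21.09. Thinned to 229 kappa counts, these sparse libraries had 15.63, 16.68 and 23.05, and the highest value was 26.75 in fisetin 2. The number of members detected was 125 of 125 in fisetin 4, with 29975 V counts, and 80 of 125 in control 5, with 442.

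Lambda light chains were a minor part of light chain V message, and the gap in their mean share was 2.88 percentage points between batches and 0.67 between diets. Lambda made up 2.73%, 1.81%, 2.43%, 4.88%, 7.36% and 5.23% of light chain V counts in fisetin 1 to 6, against 1.30%, 3.85%, 1.67%, 4.41%, 8.02% and 1.16% in control 1 to 6. Batch 2 averaged 5.18% and batch 1 averaged 2.30%, with 1 control library of batch 2 below all of batch 1. The diet means were 4.07% ± 2.12 for fisetin and 3.40% ± 2.64 for control (SD, n = 6 each). Their difference moved by more than 1.5 times without any of fisetin 2, 5 or 6 or control 1, 3, 5 or 6, and lay between 0.02 without fisetin 5 and 1.60 without control 5. Iglv1 held 56.0% to 95.5% (median 86.0%) of lambda counts in fisetin libraries and 60.0% to 85.1% (median 79.8%) in control libraries. Iglv2 and Iglv3 shared the rest, with medians of 5.04% and 8.21% in fisetin libraries and 9.12% and 10.7% in control libraries. Control 2 had 10 lambda counts and control 5 had 20, so their splits are coarse. Iglv1 was 0.762 to 105.5 CPM (median 14.5) in fisetin libraries and 0.322 to 10.4 CPM (median 2.25) in control libraries, a log2 fold change of 2.84 ± 1.21 with an edgeR adjusted p of 0.328.

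By family, heavy chain use was dominated by Ighv1, the largest of the heavy chain V families. With 34 members of 93 rows, it held 72.0% to 89.7% (median 87.5%) of heavy chain counts in fisetin libraries and 60.2% to 89.1% (median 86.5%) in control libraries. The control low was control 2, where Ighv9-3 was prominent. Among kappa families, Igkv4, with 14 members, held 8.17% to 43.8% (median 29.9%) in fisetin libraries and 12.2% to 64.8% (median 41.6%) in control libraries. Igkv3, with 6 members, held 13.0% to 33.9% (median 21.0%) in fisetin libraries and 3.60% to 25.3% (median 12.7%) in control libraries. Both families overlapped between diets. The highest Igkv4 value, in control 3, included Igkv4-70.

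Positions were read from GENCODE M21 on GRCm38, where the heavy locus lies on chromosome 12, the kappa locus on chromosome 6 and the lambda locus on chromosome 16. Split at the midpoint of its span, the part of the heavy locus far from the joining segments (chr12:114829264-116000461) held 27 members and 56.7% to 81.1% (median 62.5%) of heavy chain counts in fisetin libraries and 48.8% to 83.1% (median 78.7%) in control libraries. In the kappa locus the part near the joining segments (chr6:69184826-70704177) held 37 members, with a median of 72.5% in fisetin libraries and 70.4% in control libraries. Kappa V genes lie in both orientations, and those that point the same way as the joining segments join by deletion while the others join by inversion. The 24 members in the same orientation, on the plus strand, held 37.9% to 67.8% (median 41.1%) of kappa counts in fisetin libraries and 20.3% to 43.5% (median 31.0%) in control libraries. Within batches the means were 38.8% with fisetin and 26.5% in control for batch 1, and 53.1% with fisetin and 36.6% in control for batch 2. The diets overlapped, and Igkv17-121 and Igkv3-2 are both among the genes whose share enters this sum.

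Near-identical segments may be hard to tell apart in counts per gene, which was not tested. Of the members, 16 had another member at 97% or more of aligned bases. Ighv1-82 and Ighv1-80, printed above, are 95.44% identical over 351 aligned bases, with 16 differences. Their count ratio was 2.44, 2.52, 2.57, 2.50, 2.70 and 2.86 in fisetin 1 to 6, against 2.12, 3.5, 2.34, 2.25 and 2.17 in control 1, 2, 3, 4 and 6, while control 5 had 9 counts of Ighv1-82 and none of Ighv1-80. Over the 9 libraries with enough counts, the SD of the log2 ratio was 0.118, the lowest of 1209 pairs compared within loci. The 20 pairs at 95 to 97% identity, this one among them, had SDs of 0.118 to 2.65 (median 1.17). The next lowest SD of any pair, 0.486, was that of Ighv1-19 and Ighv1-26, at 96.3% identity. Pairs under 95% identity had SDs of 0.496 to 4.04 (median 1.93). The 4 pairs at 97% or more identity that could be compared had SDs of 1.49 to 2.02 (median 1.80), so none of these 4 had a fixed ratio. Among them, Igkv3-10 and Igkv3-5, at 98.33% identity, had an SD of 1.87. To 2 decimals, counts of Ighv1-80 were whole in every library, and those of Ighv1-82 in all but fisetin 5, at 2304.89. Igkv3-5 and Igkv3-10 had fractional counts, such as 818.51 and 81.98 in fisetin 1. Whether the fixed ratio reflects reads placed on both segments was not tested.

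**Figure D5:**
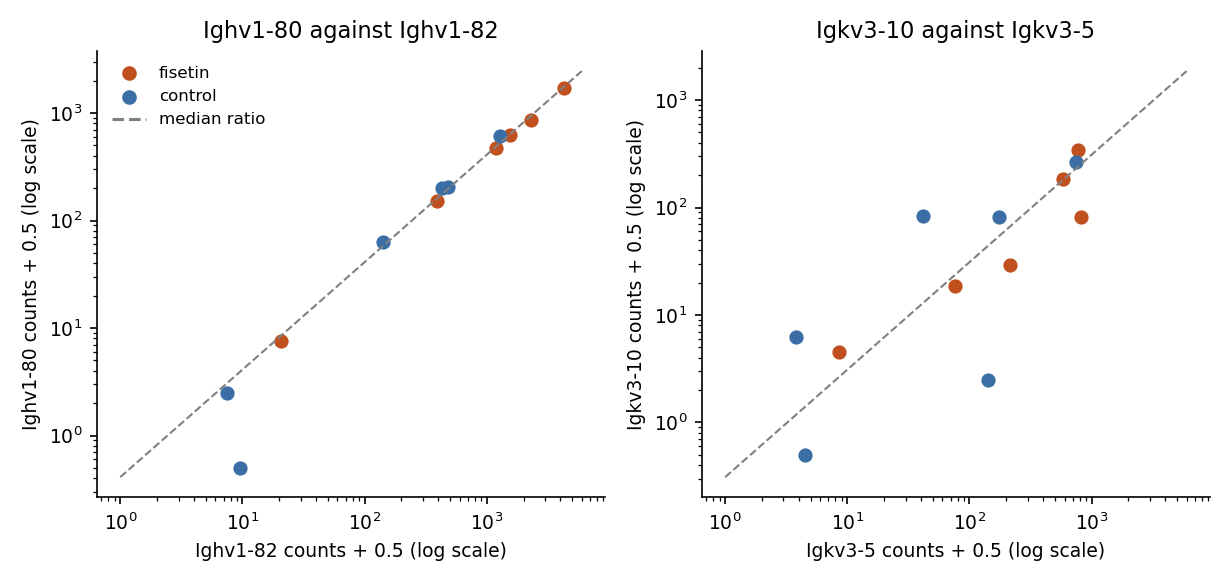
Counts plus 0.5 on log axes, per library, for Ighv1-80 against Ighv1-82 (left) and Igkv3-10 against Igkv3-5 (right), with the median ratio dashed. The left pair follows 1 line over more than 2 orders of magnitude with an SD of 0.118 in log2, whereas the right pair scatters with an SD of 1.87.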

How the data were processed

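Per the labels' protocols, RNA above an integrity limit was made into libraries with a messenger RNA kit. Among the tools in the submitters' processing notes are STAR, fastp, DESeq2 and featureCounts, with GRCm38 and mm10 as builds. No source states the counting settings. In the deposited table there is an estimated count for every gene and library, per the file headers, and 16.05% of the V gene values above 0 were not whole (tolerance 1e-06), so counts were rounded for testing. Also per the file headers, the authors deposited TPM, scaled to a fixed total, and FPKM, scaled for length and depth. TPM served as an alternative and FPKM was not used. How reads shared by similar V segments were counted is not known, and counting without strand could mix overlapping genes.

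Total counts were 16310214 to 24451821 per library, and V genes held 442 to 53525 of them. Shares and effective numbers were computed from unrounded counts, with thinning over 200 draws. Genes passing filterByExpr (minimum count 10) were tested two-sided in R 4.3.3 with edgeR 4.0.16 (TMM, robust quasi-likelihood fit, terms for batch and diet) and a Benjamini-Hochberg threshold of 0.05 over all genes. DESeq2 1.42.0 was an alternative, and its NA values were kept. The edgeR fit, but not DESeq2, was also run on simulated counts. These had no batch effect and each gene varied on its own, unlike V genes, which rise and fall together. Segments were aligned with Biopython 1.88 (at least 250 aligned bases), and count ratios were compared where both genes together had at least 50 counts in 8 or more libraries. All 125 members matched GENCODE M21, and 2 V symbols stood on 2 rows each, neither of them members.

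The members and lists were chosen with earlier results of these data known. Named were the 6 most used genes of each large locus, all lambda genes, genes reaching 10% in any library, those with the smallest p per term, those at the limit, and DESeq2 calls. Other genes were named after their values were seen. A marker gene is not reported here and was left out of its list. Alternatives covered scaling, filter, batch, units, diversity index and single libraries.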

Additional observations from a re-analysis of the deposited data

Results flagged for a closer look

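Values were set apart when the highest or lowest library of a diet lay farther from its nearest neighbour, relative to the range of the 6 libraries, than Dixon's 95% limit for 6 values allows. Of 66 sets of 6 libraries examined, 21 gave such a value. The limit gives about 1 in 20 by chance only for normally distributed values, which was not checked for these CPM and shares. In summed V level, the value set apart was control 1 at 1946 CPM. Among heavy chain shares, Ighv1-50 was set apart at 3.22% in fisetin 6 and 44.3% in control 3, Ighv1-55 at 20.0% in fisetin 3 and Ighv9-3 at 21.4% in control 2. In fisetin libraries, the kappa shares set apart were Igkv12-44 at 10.1% in fisetin 1, Igkv17-121 at 34% in fisetin 6 and Igkv6-15 at 10.8% in fisetin 5. Fisetin 2 stood apart for Igkv4-72 at 2.81%, Igkv8-19 at 3.22% and Igkv8-21 at 6.16%. In control libraries they were Igkv4-70 at 39.7% in control 3, Igkv1-117 at 15.2%, Igkv4-72 at 26.4% and Igkv8-21 at 13.6% in control 2, and Igkv10-96 at 17.0% and Igkv8-19 at 10.9% in control 5. Among lambda shares, fisetin 6 stood apart with Iglv1 at 56.0%, Iglv2 at 16% and Iglv3 at 28.0% of 25 lambda counts, and control 2 with Iglv2 at 40% of 10. Shares within a locus sum to a fixed total, so these values are not independent. Genes were in part examined because they reached 10% in 1 library, which makes such values more frequent.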

How the results depend on the processing

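Depth limits the shares of 3 libraries, which held 442 to 785 V counts. For diet over all genes, edgeR called 0, DESeq2 called 154, batch 1 alone gave 1, and leaving out 1 library at a time gave 0 to 70, the highest without fisetin 6. For V genes the count of 0 became 3 with DESeq2 and 0 to 1 without single libraries. The 1 was Ighv5-4 without fisetin 6 (edgeR adjusted p = 0.0396). With other scaling, no filter, no batch term or either batch alone, it stayed 0.

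Fold changes of 4 genes, all between -0.68 and -0.28 with all libraries, turned sign. Ighv2-2 was 0.13 by DESeq2 and 2.74 in batch 2 alone, and Igkv4-57-1 was 2.56 in batch 2 alone. Without single libraries, Ighv1-69 ranged over -0.92 to 0.59, Igkv2-137 over -1.61 to 0.62, Igkv4-57-1 over -2.39 to 1.71 and Ighv2-2 over -1.97 to 3.04. The causes were not tested. Summed level, diversity, leading share and lambda share moved by less than 1 pooled SD of the libraries under each alternative run. Chosen after seeing the data were thinning with single libraries left out, which gave 1.5 to 4.82 effective heavy and 2.08 to 5.25 effective kappa genes of difference, and leaving out fisetin 6, control 2 and control 5, which gave a summed level difference of 1.24 on the log2 scale. No paired analysis was possible because the replicate numbers follow accession order only and pair nothing.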

Other observations

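Segments known from antibodies of B-1 cells, a self-renewing B cell lineage of the body cavities, against phosphatidylcholine were looked up after the member values were seen. The heavy chain segment Ighv11-2 had 15 counts over all 12 libraries and Ighv12-3 had 3. Their usual kappa partners had 59 counts for Igkv14-126 and 121 for Igkv4-91. Of these 4 segments, Igkv4-91 alone was a member, with 0% to 0.250% (median 0.123%) of kappa counts in fisetin libraries and 0% to 2.00% (median 0.0299%) in control libraries.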
